A study of Strongylocentrotus purpuratus with 17 samples.

Results

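Small nuclear RNA (snRNA) genes of the purple sea urchin, Strongylocentrotus purpuratus, were followed through 4 embryonic stages by the transcriptional regulatory elements called at them. The members were all genes of biotype snRNA in the RefSeq annotation of assembly Spur_5.0 that lie on the 21 large scaffolds, 256 of the 296 snRNA genes in the gene table and 256 of 30064 genes of all kinds on these scaffolds. The other 40 snRNA genes lie outside the 21 scaffolds and were not analysed here. Only 2 of the 256 carry a name, U1 and U2, and the rest have a locus number. That they are genes of the spliceosome therefore rests on the biotype and on these names, and no other member was assigned to an RNA class.

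The elements came from PRO-seq, which maps engaged RNA polymerases by letting them run on in isolated nuclei with labelled nucleotides. Elements are dREG peaks, stretches where the pattern of nascent transcription marks an active promoter or enhancer. The embryos were of the genotype given as wild and were grown at 15 °C, and each stage had 1 list of elements: 8 h (2 libraries of 1 biological replicate), 12 h (4 libraries of 3), 20 h (5 libraries of 4) and 72 h (2 libraries of 2). The labels name the 8 h embryos as hatching blastulae, but their tissue field names the 8 h stage for every library. This staging was not checked here. The series has 17 libraries. Those made by quick PRO-seq, 2 from adult red spherule cells and 2 from 72 h embryos, were not analysed here.

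The lists held 56158, 30570, 37796 and 4425 elements at 8 h, 12 h, 20 h and 72 h, with no score and no number of reads, and sequencing depth is therefore unknown. Each list stands for all libraries of its stage, so no value below has a spread between replicates and no test between stages could be run. The step at which libraries were joined was not checked here. A gap between stages can hold a gap in list length, and the 12 h and 20 h libraries were, per the labels, samples of earlier work. Intervals given with shares are Wilson 95% intervals over genes and cover counting error only. Neighbouring genes can share an element and are not independent.

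The spliceosome, which removes introns from pre-mRNA, is built around the snRNAs U1, U2, U4, U5 and U6, each held in a ribonucleoprotein particle. RNA polymerase II makes most of them and RNA polymerase III makes U6, and the promoters of both kinds are short and are recognised by the snRNA-activating complex with the TATA-binding protein. In sea urchins, U1 and U2 genes are known as tandem repeats that serve the oocyte and early embryo, besides dispersed copies. No genome sequence was used here, so no sequence is shown and the similarity of the copies was not measured.

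The 256 genes fell into 58 clusters when genes within 10 kb of each other were joined. Of these, 46 held 1 gene and 8 held 2 to 6 genes, 25 genes in all. The other 4 were arrays of 68, 54, 45 and 18 genes that together held 185 members, 72.3%. Array in what follows means a cluster of at least 11 genes. The genes outside the arrays numbered 71. Members were spread over 15 of the 21 scaffolds.

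An element is said here to reach an end of a gene when it lay within 500 bp of that end. It counted for a gene when it reached either end. By this rule 71 of the 256 snRNA genes had an element at 8 h (27.7%, interval 22.6 to 33.5), against 46.7% of the 29808 other genes. At 12 h 61 genes had one (23.8%, 19.0 to 29.4), against 36.8% of other genes. At 20 h 42 did (16.4%, 12.4 to 21.4), against 39.3%, and at 72 h 11 did (4.3%, 2.42 to 7.53), against 11.2%. At each stage the share of snRNA genes with an element was below that of the other genes. The order of the stages depends on which elements are kept. With the 4425 widest elements of each list, 7, 7, 5 and 11 snRNA genes had one at 8 h, 12 h, 20 h and 72 h, a choice that shortens the lists and favours wide elements at once. The lists come from whole embryos, so fewer cells using a gene and less transcription per cell cannot be told apart.

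Genes outside the arrays and genes in the arrays differed widely in this share. Outside the arrays 46 of 71 genes had an element at 8 h (64.8%, interval 53.2 to 74.9), 41 genes at 12 h (57.7%, interval 46.2 to 68.5), 38 genes at 20 h (53.5%, interval 42 to 64.6) and 10 genes at 72 h (14.1%, interval 7.83 to 24.0). In the arrays 25 of 185 had one at 8 h (13.5%, interval 9.32 to 19.2), 20 genes at 12 h (10.8%, interval 7.11 to 16.1), 4 genes at 20 h (2.16%, interval 0.844 to 5.43) and 1 gene at 72 h (0.541%, interval 0.0955 to 3.0). The intervals of the 2 sets did not overlap at any stage. They treat genes as independent, whereas the array genes come from 4 arrays in which neighbours share elements. The limit of 11 genes for an array was set after the data were seen. The low share over all 256 members thus came from the arrays, while genes outside them had a higher share than the other genes of the annotation at all 4 stages. That margin was small at 72 h, where the interval of the 71 genes held the share of the other genes.

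**Figure D1:**
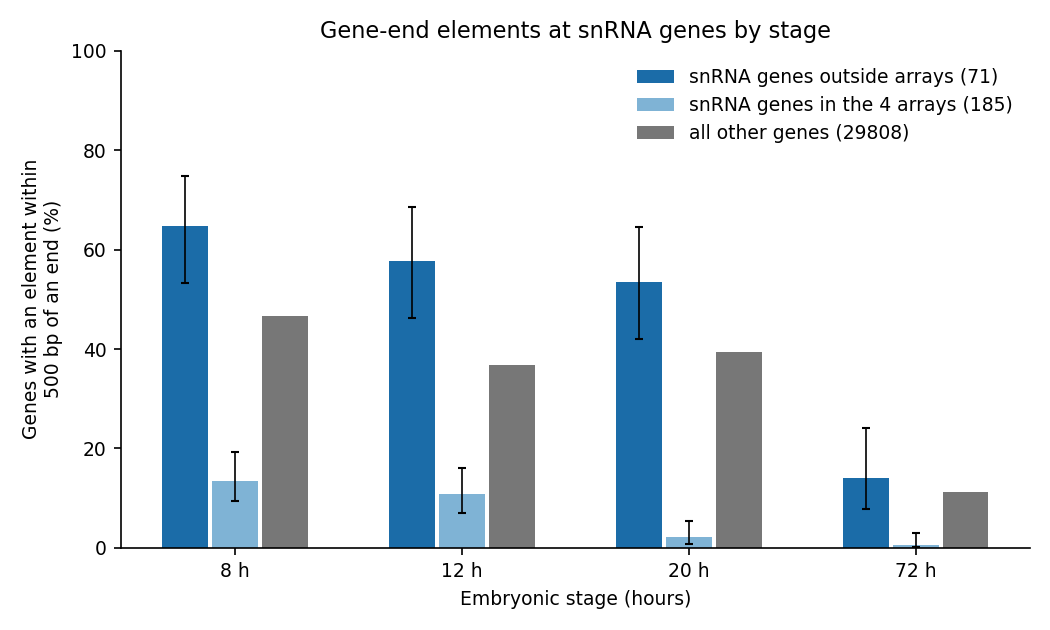
Share of genes with an element within 500 bp of an end (%, vertical axis) at 8, 12, 20 and 72 h for the 71 snRNA genes outside arrays, the 185 in arrays and the 29808 other genes; error bars on the snRNA bars are Wilson 95% intervals over genes. Bars of the genes outside arrays stand at 64.8%, 57.7%, 53.5% and 14.1% and those of the array genes at 13.5%, 10.8%, 2.16% and 0.541%.

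Short genes are the closer comparison, because the windows around their ends nearly coincide. Of the 2447 other genes under 1 kb, 35.8%, 28.1%, 22.4% and 7.56% had an element at 8 h, 12 h, 20 h and 72 h, below the snRNA genes outside arrays at each stage. Clustered genes were kept among these 2447, while the arrays were left out of the snRNA set. With the arrays, all 256 snRNA genes stood below the 2447 at each stage, at 27.7%, 23.8%, 16.4% and 4.3%. Among the 606 protein-coding genes under 1 kb the shares were 22.4%, 17.7%, 14.9% and 6.27%. Of all positions on the 21 scaffolds, 10.6% lay within 500 bp of an 8 h element, 5.89% of a 12 h element, 7.12% of a 20 h element and 0.827% of a 72 h element. The share of array genes stood above these values at 8 h and 12 h and below them at 20 h and 72 h, and its interval held the 8 h and the 72 h value. The rule for genes used the windows of both ends, which together span somewhat more than the window of a single position.

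Counted by cluster, where neighbours that share an element count once, 43, 38, 37 and 10 of 58 clusters had an element at 8 h, 12 h, 20 h and 72 h (74.1%, 65.5%, 63.8% and 17.2%). All 4 arrays had at least 1 gene with an element at 8 h and at 12 h, 3 had one at 20 h and 1 at 72 h. Among the 54 clusters outside arrays the numbers were 39, 34, 34 and 9.

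Most members had no element in any list. This held for 171 of 256 genes (66.8%), against 46.8% of other genes, and was made up of 151 of the 185 array genes and 20 of the 71 genes outside arrays (28.2%). An element at all 4 stages was found at 10 snRNA genes (3.91%), against 10.5% of other genes, and all 10 lay outside arrays. At 60 genes (23.4%) there was one at 8 h and none at 72 h, against 35.8% of other genes, and with those equal lists at 6 genes. The most common pattern with an element was 8 h with 12 h and 20 h, found at 24 genes, 22 of them outside arrays.

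Outside the arrays elements recurred at the same genes about as often as at other genes of the annotation. Of the 46 genes with an 8 h element, 38 also had one at 12 h (82.6%), against 72.9% among other genes, and 35 had one at 20 h (76.1%), against 74%. Of the 41 with a 12 h element 33 had one at 20 h (80.5%), against 84.8%. In the arrays 13 of 25 genes with an 8 h element had one at 12 h, and 2 of 20 genes with a 12 h element had one at 20 h (10%). The 20 h list was the longer of these 2 lists. At 72 h, 10 of the 11 genes with an element had had one at all the earlier stages (90.9%), against 94.4% among other genes. The exception was LOC115917773, in the array of 45, with none at 20 h.

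Where the same gene had elements at 2 stages, these nearly always covered the same DNA in part. The rule makes this likely, since both elements had to lie within 500 bp of an end of the same short gene. The overlap was not measured at other genes. Overlap of at least 1 bp was found at 38 of 38 genes outside arrays with elements at 8 h and 12 h, at 33 of 33 for 12 h and 20 h, at 34 of 35 for 8 h and 20 h and at 10 of 10 for 72 h with each earlier stage. At the exception, LOC115920082, the 8 h element covered the gene and the 20 h element lay 206 bp from it. Inside the arrays it was found at 13 of 13 genes for 8 h and 12 h.

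The members were grouped by length, since the table gives no RNA class. Lengths more than 5 bp apart from their neighbour in the sorted list were split, which gave 9 groups, each named here by its shortest and longest gene. The split was made after the lengths were seen, and a length group need not be an RNA class. Equal lengths were common, with 73 genes of 162 bp, 58 of 119 bp, 49 of 192 bp, 21 of 107 bp and 16 of 141 bp.

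**Figure D2:**
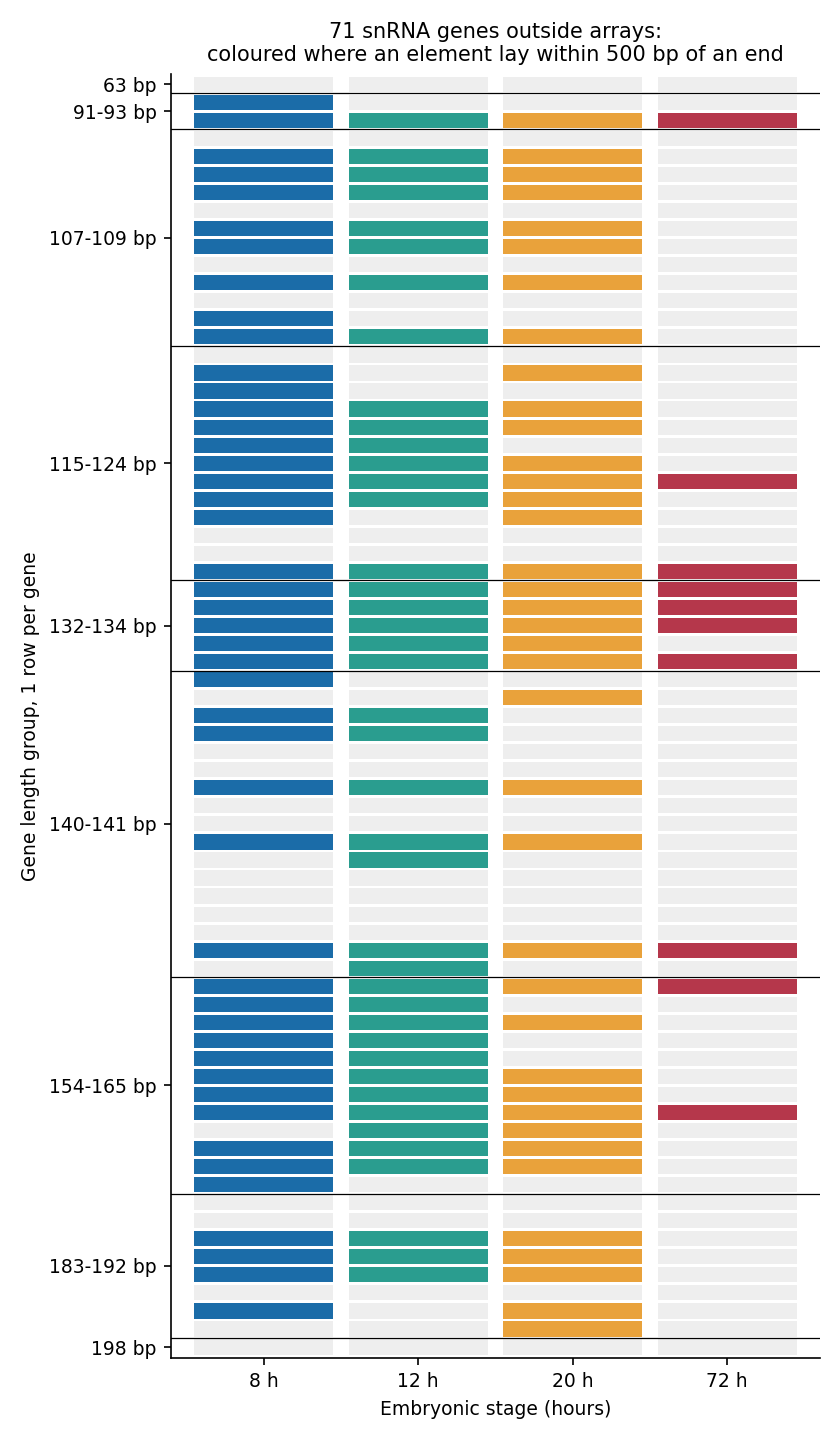
Each of the 71 snRNA genes outside arrays is a line of cells, ordered by length (vertical axis, length groups in bp) against stage (8, 12, 20 and 72 h); a cell is coloured where an element lay within 500 bp of an end and grey where none did. The 132-134 bp group is filled at 8, 12 and 20 h for all 5 genes and at 72 h for 4. Most cells of the 107-109, 140-141 and 183-192 bp groups are grey, as are all cells of the 63 and 198 bp genes.

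The 132 to 134 bp genes had the fullest record. All 5 had an element at 8 h, 12 h and 20 h, and 4 of the 5 had one at 72 h, out of the 11 snRNA genes with a 72 h element. They lie at 4 places. LOC115922393 and LOC115922399 form a pair 4137 bp apart by their starts on NW_022145596.1 (19277617 to 19277749 and 19281754 to 19281887), each with its own element at all 4 stages. At LOC115922393 the elements were 620, 460, 480 and 400 bp wide at 8 h, 12 h, 20 h and 72 h and at LOC115922399 530, 510, 620 and 440 bp. All 8 of these elements covered their gene from end to end.

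LOC115924855 (NW_022145601.1, 18287931 to 18288062) had elements 750, 700, 680 and 450 bp wide, and LOC115920792 (NW_022145615.1, 17149865 to 17149996) had elements of 560, 650, 620 and 470 bp. Both lie inside another annotated gene, 23988 and 10167 bp from the nearest end of any other gene. The fifth gene, LOC115922392 (NW_022145596.1, 25777333 to 25777465), had elements of 1420, 1280 and 620 bp at 8 h, 12 h and 20 h, and its nearest 72 h element lay 60083 bp away. At none of these 5 genes did the element reach an end of another gene.

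Genes of 154 to 165 bp outside arrays came next. Of the 12, 11 had an element at 8 h, 11 at 12 h, 8 at 20 h and 2 genes at 72 h, and none was without one at every stage. LOC115917780 (NW_022145601.1, 14601613 to 14601774), of 162 bp like most of the largest array, had elements of 720, 900, 810 and 430 bp at the 4 stages. LOC115928359 (NW_022145607.1, 15176485 to 15176638), of 154 bp and inside another gene, had elements of 540, 660, 770 and 490 bp. The 68 genes of this length group that form the largest array had 9, 14, 0 and 0 genes with an element, and at 20 h 8 of 12 genes outside arrays had one, against 0 of 68 in this array.

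In a small cluster of this group the 12 h and 20 h elements at 2 genes overlapped each other in part but had different midpoints. LOC115917783, LOC115917785 and LOC115917784 lie within 7822 bp on NW_022145603.1 (13143372 to 13151193), and 2, 3, 2 and 0 of them had an element at 8 h, 12 h, 20 h and 72 h. At LOC115917783 the 12 h element was centred 42 bp below the gene midpoint and the 20 h element 333 bp above it. At LOC115917784 the offsets were -42 bp at 12 h and 348 bp at 20 h. Below and above refer to scaffold positions, since the table gives no strand.

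Genes of 115 to 124 bp outside arrays, 13 in number, had an element at 10, 7, 8 and 2 genes at 8 h, 12 h, 20 h and 72 h. LOC115920084 (NW_022145613.1, 5503868 to 5503987) and LOC115920091 (NW_022145613.1, 9488642 to 9488765) had one at all 4 stages, 540 and 530 bp wide at 72 h, and both lie inside other genes. LOC115922021, LOC115928919 and LOC115928920 had none at any stage, and their nearest 8 h elements were 11830, 11846 and 87241 bp away. LOC115921529 and LOC115921530, the pair at 33898793 to 33902657 of NW_022145594.1, each had an element at 8 h and 20 h and none at 12 h. In both cases it lay beside the gene and did not overlap it.

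Genes of 107 to 109 bp outside arrays had an element at 8, 7, 7 and 0 of 12. No gene of this length group had one at 72 h, including the 17 in the array of 18. LOC115926981, LOC115927814 and LOC115927794, 3 of the 4 outside arrays with none at any stage, were 13093, 5830 and 65817 bp from the nearest 8 h element.

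Genes of 183 to 192 bp outside arrays had an element at 4, 3, 5 and 0 of 8. Both genes of 183 bp, LOC115917772 and LOC115917723, had none at any stage. The 198 bp gene LOC115917770 (NW_022145594.1, 12668337 to 12668534) lies 32081 bp from the nearest end of another gene and had none at any stage. Its nearest 8 h element was 797 bp away. The shortest member, LOC115926978 of 63 bp (NW_022145605.1, 27251700 to 27251762), also had none, the nearest being 1460 bp away at 12 h.

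The 140 to 141 bp genes all lay outside arrays. Of 17 genes in 6 clusters, 6, 7, 4 and 1 had an element at 8 h, 12 h, 20 h and 72 h, and 8 had none at any stage. Their largest cluster, 6 genes over 12616 bp of NW_022145601.1 (17572661 to 17585276), had elements at its 2 outer genes and at none of the 4 between. The last of the 6, LOC115924852 (17585136 to 17585276), had elements of 730, 770, 480 and 400 bp at the 4 stages, each covering the gene. LOC115924856, the second of the 6, had no element at any stage, the nearest lying 1442 bp away at 8 h.

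In the cluster of 5 on the same scaffold (7547459 to 7554497), LOC115924842 had an element at 8 h and 12 h and LOC115924848 at 8 h, 12 h and 20 h, while LOC115924843 was among the 3 without. In the cluster of 3 (7791312 to 7794370) LOC115924858 had one at 8 h, 12 h and 20 h, its neighbour LOC115924847 at 12 h, and LOC115924846 at no stage.

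The 2 genes of 91 and 93 bp differed. LOC115926249 (NW_022145604.1, 4434446 to 4434536), of 91 bp, had an element across it at 8 h that also lay within 500 bp of an end of another gene. At 12 h and 20 h the nearest element lay 746 and 756 bp away. LOC115925749 (NW_022145603.1, 17794845 to 17794937), of 93 bp, had elements of 1340, 1410, 1280 and 450 bp at the 4 stages. None of these 4 overlapped the gene, from which they lay 74, 134, 214 and 174 bp away, and all reached an end of the protein-coding gene LOC577040, 440 bp off.

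Elements at genes outside arrays mostly lay across the gene itself. At 8 h they overlapped 37 of the 46 genes with an element (80.4%), at 12 h 38 of 41 (92.7%), at 20 h 29 of 38 (76.3%) and at 72 h 9 of 10 (90%). The median distance between the midpoints of the gene and its nearest element was 113, 78.5, 209 and 93.5 bp. Among the 33 genes with an element at both 20 h and 12 h, this distance was larger at 20 h at 22 genes and smaller at 11, with medians of 153 bp at 20 h and 94.5 bp at 12 h. No such count was made for other genes.

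Ends of other genes were seldom close. Of the 71 genes, 1 had an end of another gene within 500 bp and 6 within 1000 bp, and the median distance was 6620 bp. Elements that also reached an end of another gene were the only ones at 5, 2, 5 and 1 of the genes outside arrays at 8 h, 12 h, 20 h and 72 h. The 23 genes that lie inside another gene had an element in 78.3%, 65.2%, 56.5% and 21.7% of cases, and the 48 between genes in 58.3%, 54.2%, 52.1% and 10.4%. The intervals of these 2 sets overlapped at every stage.

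**Figure D3:**
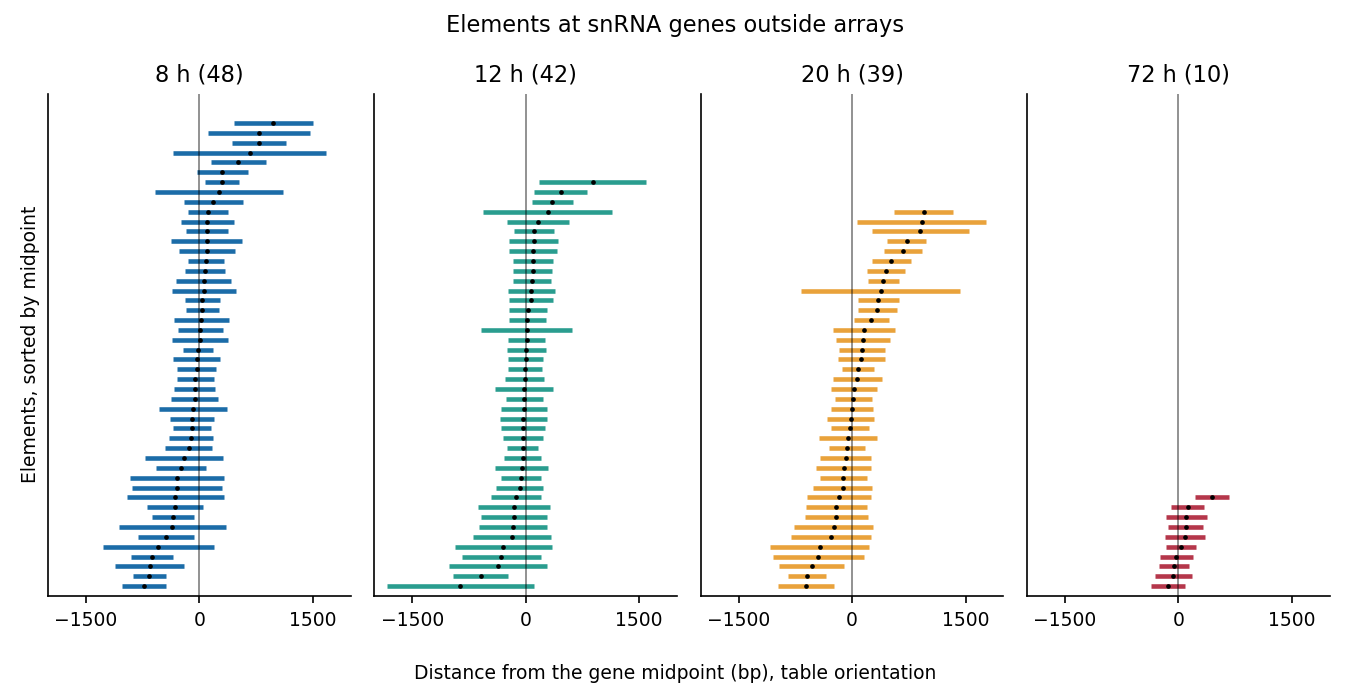
Each bar is an element at an snRNA gene outside arrays, drawn by its start and end in bp from the gene midpoint (horizontal axis, scaffold direction), with a dot at its own midpoint, sorted by midpoint; the vertical line is the gene midpoint and the number over each panel counts elements at 8, 12, 20 and 72 h. Most bars cross the line at every stage, and more bars lie to one side of it at 8 h and 20 h than at 12 h and 72 h.

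Elements at snRNA genes were narrower than those at the ends of other genes. Outside arrays the medians were 690, 620, 650 and 450 bp at 8 h, 12 h, 20 h and 72 h over 48, 42, 39 and 10 elements, against 860, 860, 810 and 580 bp for elements at other genes. The widest at 20 h was 2110 bp, at LOC115917777, and the widest at 8 h was 2020 bp, at LOC115917860, and both also reached an end of another gene. The widest at 12 h was 1940 bp, at LOC115917857, and reached none. All 10 genes outside arrays with an element at both 72 h and 20 h had a narrower one at 72 h, with medians of 450 bp at 72 h and 695 bp at 20 h. Elements at other genes were narrower at 72 h too, with medians of 580 bp against 810 bp at 20 h. The count by gene was not made for other genes.

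The largest array holds the named U1 gene. Its 68 genes lie at a median spacing of 1109 bp over 74270 bp of NW_022145605.1 (28434264 to 28508533), 66 of them of 162 bp. There were 9, 14, 0 and 0 genes with an element at 8 h, 12 h, 20 h and 72 h, from 5, 10, 0 and 0 distinct elements. At the mean density of the 21 scaffolds a stretch of this length would hold 4.67, 2.55, 3.2 and 0.385 elements at 8 h, 12 h, 20 h and 72 h, and 5, 9, 0 and 0 elements overlapped the span of the array. All 5 elements of 8 h overlapped one of 12 h. They lay at genes 12 and 13, 15 and 16, 41 and 42, 64, and 67 and 68, counted from the lower end, and genes 1 to 11 had none.

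At 12 h there were further elements at gene 1, gene 2, genes 52 and 53, gene 53 again, and genes 61 and 62. Of the genes in this array, 3 at 8 h and 8 at 12 h were overlapped by an element, the others having one in the spacer beside them. U1 itself (28479657 to 28479817), a 161 bp gene with the synonym U1E, is gene 42. It had an element 467 bp away at 8 h, and the nearest was 507 bp away at 12 h, 169417 bp at 20 h and 209944 bp at 72 h. The 150 kb below and above the array held 1 and 3 elements at 8 h, 2 and 2 at 12 h, 1 and 0 at 20 h and none at 72 h.

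**Figure D4:**
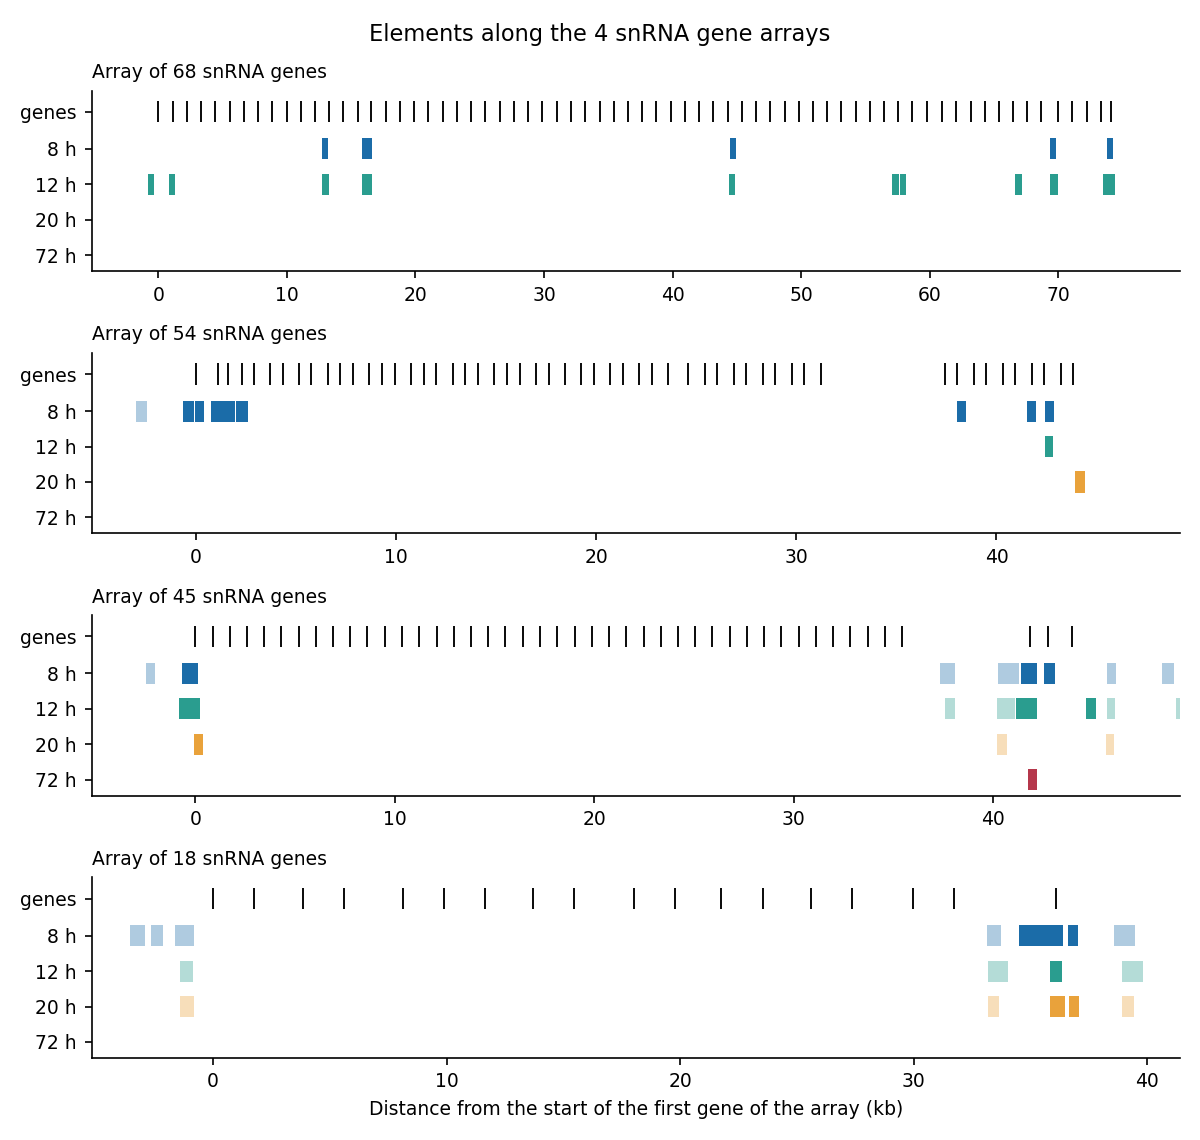
The 4 snRNA gene arrays, with a tick for each gene start and bars for elements at 8, 12, 20 and 72 h along the distance from the first gene (kb, horizontal axis); pale bars are elements over 500 bp from every gene of the array. In the array of 68, elements appear at inner as well as outer genes at 8 h and 12 h and none at 20 h and 72 h. In the other arrays they lie toward the ends.

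The array of 54 genes lies on NW_022145612.1 (8702722 to 8746677) at a median spacing of 633 bp, with 53 genes of 119 bp. It had 12, 2, 1 and 0 genes with an element at 8 h, 12 h, 20 h and 72 h, from 7, 1, 1 and 0 elements. At 8 h these lay at genes 1 to 5 at one end and between genes 45 and 53 at the other, and genes 6 to 44 had none. The 12 h element lay at genes 52 and 53 and the 20 h element at gene 54, the last. Genes 45 to 54 are set off from the rest by the widest spacing of the array, 6203 bp from the start of gene 44 to that of gene 45, so every element at the upper end lay beyond this break.

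The array of 45 genes includes the named U2 gene and lies on NW_022145594.1 (27687875 to 27732016) at a median spacing of 865 bp, with 43 genes of 192 bp. It had 3, 3, 2 and 1 genes with an element. These were genes 1, 43 and 44 at 8 h, genes 1, 43 and 45 at 12 h, genes 1 and 2 at 20 h and gene 43 at 72 h. The widest spacing of this array, 6394 bp, falls just before gene 43, so that genes 2 to 42 had an element only at gene 2, at 20 h. Gene 43, LOC115917773 (27729687 to 27729873), is 187 bp long and overlaps an end of the protein-coding gene LOC105446982, which its elements also reached. U2 (27701692 to 27701880, 189 bp), gene 17, was chosen for its name and had no element at any stage. Its nearest elements lay 13682, 13562, 13412 and 27741 bp away.

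The array of 18 genes lies on NW_022145606.1 (34089778 to 34125977) at a median spacing of 1763 bp. It had an element at 1 gene at 8 h, 12 h and 20 h and at none at 72 h. In each case this was LOC115927791, the last, which at 119 bp is the only one of the 18 that is not 107 bp long. It too follows the widest spacing of its array, 4363 bp. In the array of 68 the spacing ran from 779 to 1292 bp with no such break. The breaks were noticed after the elements were drawn along the arrays.

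In these 4 arrays elements were more frequent at the edges. Of the 40 genes that are among the first 5 or last 5 of an array, 16, 11, 4 and 1 had an element at 8 h, 12 h, 20 h and 72 h (40% at 8 h). Of the 145 inner genes 9, 9, 0 and 0 had one (6.21% at 8 h), and a share of up to 2.58% of genes falls within the Wilson interval of the last 2. Without the array of 68, the 87 inner genes had 3, 0, 0 and 0. The edges were set at 5 genes after the positions of the elements were known.

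Array genes share their length and spacing, and reads from copies with the same sequence could not be told apart. How reads that match several places were treated is not given in the sources used here, and its part in the low shares of array genes was not tested. An array gene without an element is therefore not shown to be silent.

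Transfer RNA genes, another family of short genes in many copies, also had a lower share in larger clusters. Alone within 10 kb, 247 tRNA genes had an element in 82.2%, 74.5%, 66% and 24.7% of cases at 8 h, 12 h, 20 h and 72 h, and the 46 snRNA genes alone within 10 kb in 67.4%, 58.7%, 56.5% and 15.2%. In clusters of 2 to 10, 419 tRNA genes had one in 75.2%, 57%, 44.6% and 12.2% of cases. In clusters of over 10, 288 tRNA genes had one in 36.5%, 24%, 16.7% and 7.64% of cases, each above the snRNA arrays. The 25 snRNA genes in clusters of 2 to 6 had one in 60%, 56%, 48% and 12%. Of the ribosomal RNA genes, 161 lay in clusters of over 10 and had an element in 6.21%, 6.83%, 4.35% and 0% of cases. These shares were below those of the snRNA arrays at 8 h, 12 h and 72 h and above at 20 h. The intervals of the 2 families overlapped at every stage. The 21 ribosomal RNA genes in clusters of 2 to 10 had an element in 33.3%, 38.1%, 38.1% and 38.1%. Small nucleolar RNA genes, which guide the modification of other RNAs, had one in 27.6%, 24.1%, 10.3% and 6.9% of the 29 that lie alone within 10 kb, and at 8 h in 0 of the 60 in clusters of 2 to 10 (upper Wilson bound 6.02%). MicroRNA genes, whose products repress mRNAs, went the other way, with an element at 8 h in 15.8% of the 38 that lie alone and 33.3% of the 15 in clusters of 2 to 10, although the intervals of these shares overlapped.

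**Figure D5:**
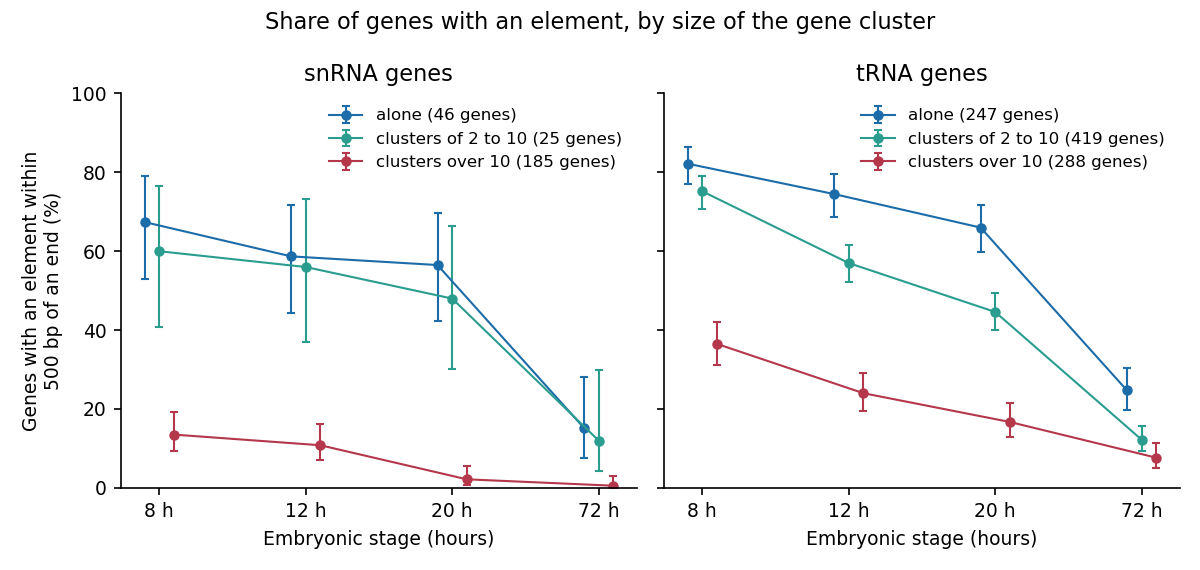
Share of genes with an element within 500 bp of an end (%, vertical axis) by stage (8, 12, 20 and 72 h) for snRNA genes (left) and tRNA genes (right), split by the number of like genes joined within 10 kb; error bars are Wilson 95% intervals over genes. In both families the genes in clusters of over 10 lie lowest, from 13.5% to 0.541% for snRNA and from 36.5% to 7.64% for tRNA genes.

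Of the protein genes that make or hold snRNAs, TBP was the only one found by symbol, as 249 of the 24774 protein-coding genes have a symbol other than a locus number. TBP, which encodes the TATA-binding protein (NW_022145611.1, 30080776 to 30086310), had a gene-end element at all 4 stages.

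The limit of 500 bp split few genes closely. The members nearest inside it at 8 h, 12 h and 20 h lay 461 to 495 bp from their element. These were U1 (467 bp) and LOC115919596 (494 bp) at 8 h, LOC115917840 (482 bp) and LOC115917766 (495 bp) at 12 h, and LOC115917746 (461 bp) and LOC115921527 (490 bp) at 20 h. Nearest outside were LOC115917852 (518 bp) and LOC115921527 (730 bp) at 8 h, U1 (507 bp) and LOC115917852 (508 bp) at 12 h, and LOC115921526 (577 bp) and LOC115919613 (592 bp) at 20 h. At 72 h LOC115925749 (174 bp) was the farthest inside and LOC115920091, like the others, overlapped its element, while LOC115917765 (531 bp) and LOC115927789 (1363 bp) were nearest outside.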

How the data were processed

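Per the labels, the deposited lists hold dREG peaks of all PRO-seq libraries of a stage, on genome version Sp 5.0, and give scaffold, start and end. Positions are in steps of 10 bp and are printed counted from 1. For the aligner and the caller's settings, the sources used here give nothing. The names of the lists call the peaks merged, and how they were merged was not checked here. Groups were taken from sample titles, as the tissue field names the 8 h stage for every library.

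The gene table (RefSeq, Spur_5.0) gave no scaffold, strand or RNA class. Each of 21 runs of at least 900 genes with rising starts was placed on a scaffold with the 8 h elements. It was the scaffold where elements lay within 500 bp of the largest share of all gene starts and ends of the run. That share of ends was 18.8% to 33.6%, at least 1.66 times the next best. All 21 kept their scaffold when placed with 12 h, 20 h or 72 h elements or with protein-coding genes only. Positions printed here rest on this inference, which used the 8 h list.

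Overlap and placement code was tested on simulated data. Python 3.11.15, pandas 2.3.3 and scipy 1.17.1 were used. The planned RNA classes, pathway gene list and promoter motifs needed descriptions or sequence not used here; length groups, set like the array limit after the data were seen, replaced the classes. Genes were named by rule: all members of length groups of up to 5 genes, the 10 largest clusters, all genes with a 72 h element, up to 3 genes per group with elements at all or no stages (1 per cluster), and the 2 nearest the limit on each side. Members and lists were chosen with earlier results of these data known.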

Additional observations from a re-analysis of the deposited data

How the results depend on the processing

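No paired analysis was possible because each stage has 1 list pooled over its libraries, so no replicate could be blocked or left out. The 94 alternative values covered the distance from a gene end, the width of elements, list length, gene placement, cluster distance, array size and the largest cluster, and 87 stayed within 1.5 times of the value reported. Of these, leaving out elements that also reach another gene's end and changing the size of an array were chosen after seeing the data. The other 7 came from filters on width. Among the 87, values with genes placed by 20 h elements or by protein-coding genes only could not differ, since all 21 runs kept their scaffold. The same holds for the 72 h count with the 4425 widest elements, which are that whole list. Leaving out the array of 68 genes could not change the gene counts at 20 h, at 72 h or at all 4 stages. That array had 0 genes with an element at 20 h and at 72 h. With the 4425 widest elements of each list, 7, 7 and 5 snRNA genes had an element at 8 h, 12 h and 20 h, against 11 at 72 h, where the list holds 4425 in all. Only 1 then had one at all 4 stages, and 6 had one at 8 h and not at 72 h. Whether list length or width moved these values was not tested. With elements of at least 500 bp, 2 genes had one at 72 h and the same number, 2, at all 4 stages, since most 72 h elements at snRNA genes are narrower. Without the array of 68 genes, 62, 47, 42 and 11 of 188 genes had an element at 8 h, 12 h, 20 h and 72 h.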
